A study of Mus musculus with 45 samples.

Results

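Lysosomal enzyme and membrane genes were followed as a set of 37 genes, matched by exact symbol in the gene name column of both deposited tables. All 37 symbols were found, each once, among the 55335 genes of each table. The data are RNA-seq levels in FPKM, that is, fragments per kilobase of a transcript at a common library size, from 2 mouse tumour lines in culture. CT26 is a colon carcinoma line and Hepa1-6 a liver tumour line. In the drug experiment, wild-type cells of each line were kept for 48 hours in DMSO, the solvent control, or with a compound that the labels call stk. In the knockdown experiment, cells carrying a short hairpin RNA were collected 24 hours after seeding and received no drug. CT26 carried a hairpin against luciferase (the control, here lucif) or a hairpin targeting Soat1, of which there are 3, named sh1, sh2 and sh3. Hepa1-6 carried the luciferase hairpin or a scrambled hairpin (scram). These are 10 groups of 3 libraries. Whether a knockdown line is a pool or a clone, and whether the libraries of a group are separate cultures, is not given in the sources used here, so p-values measure the spread between these libraries, which may be technical. The title of the series concerns inhibition of SOAT1, the enzyme of the endoplasmic reticulum that esterifies free cholesterol.

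Lysosomes are acidic organelles in which hydrolases take apart proteins, glycans and lipids that arrive by endocytosis and autophagy. A proton pump, the V-ATPase, keeps the lumen acid, heavily glycosylated membrane proteins such as LAMP1 and LAMP2 line it, and the related transcription factors TFEB and TFE3 can raise many lysosomal genes together through E-box-like sites in their promoters. The organelle also stands upstream of SOAT1: acid lipase frees cholesterol from lipoprotein esters, NPC2 and NPC1 pass it out of the lysosome, and SOAT1 stores it again as ester. The 37 genes comprise 8 of the membrane (Lamp1, Lamp2, Cd63, Cd68, Scarb2, Laptm4a, Cln3, Mcoln1), 10 proteases (Ctsa, Ctsb, Ctsc, Ctsd, Ctsh, Ctsk, Ctsl, Ctss, Ctsz, Tpp1) and 9 enzymes that act on glycans (Gaa, Gla, Glb1, Gusb, Hexa, Neu1, Man2b1, Naglu, Sgsh). They also comprise 5 genes of lipid breakdown and its helpers (Asah1, Smpd1, Psap, Grn, Ppt1), 3 of the proton pump (Atp6v0d1, Atp6v1h, Atp6ap1) and the factors Tfeb and Tfe3.

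Promoter sequences are shown for 8 of the 12 members whose windows hold the E-box-like motif, since these genes moved in different directions in the results (Atp6v0d1, Ctsa, Ctsl and Gaa hold it too and are not printed). RefSeq windows of 300 bases (250 before a start and 50 after it, build GRCm38.p6) exist for 33 of the 37 members, in 39 windows. Ctsh, Asah1, Ctsb and Atp6v1h have none. Read on both strands, the letters CACGTG occurred in 12 of the 33 members, in 30.8% of their 39 windows, beside 7.15% of 32851 mouse windows of this length. The longer GTCACGTG, which contains CACGTG, occurred in 10 of them (Atp6v0d1, Cln3, Ctsa, Ctsd, Gla, Glb1, Lamp1, Mcoln1, Naglu and Sgsh), in 25.6% of the 39 windows, beside 2.25% of all windows. The palindrome GTCACGTGAC, which contains both, occurred in Cln3 alone, in 2.56% of the 39 windows, beside 0.326%. The Lamp1 window held 4 copies of CACGTG within 72 bases just before its start, the highest number in any member. Sequences are written 5′ to 3′ on the strand of the gene, with the motif in capitals (CACGTG in Lamp1, GTCACGTGAC in Cln3, and GTCACGTG, or CACGTGAC where the match is on the other strand, in the rest). They lie at chr8:13159089-13159160 (plus strand) for Lamp1, chr7:126583340-126583369 (minus) for Cln3, chrX:134601183-134601212 (minus) for Gla, chr9:114401017-114401046 (plus) for Glb1, chr7:142387907-142387936 (minus) for Ctsd, chr8:3500435-3500464 (plus) for Mcoln1, chr11:101070008-101070037 (plus) for Naglu and chr11:119355521-119355550 (minus) for Sgsh. A match is a description of these letters in this window and not evidence of binding.
Lamp1: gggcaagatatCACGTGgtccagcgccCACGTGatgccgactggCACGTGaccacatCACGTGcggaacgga
Cln3: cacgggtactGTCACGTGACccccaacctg
Gla: gtgagatctcgGTCACGTGagcaactctcg
Glb1: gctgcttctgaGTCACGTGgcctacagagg
Ctsd: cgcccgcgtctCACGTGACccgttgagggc
Mcoln1: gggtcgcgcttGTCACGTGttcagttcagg
Naglu: ccaaccttcagGTCACGTGgcccgaggtcg
Sgsh: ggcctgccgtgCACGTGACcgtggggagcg

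The labels were checked first. In CT26, Soat1 stood at 19.6, 19.9 and 20.2 FPKM in the lucif libraries, 3.29, 3.23 and 3.28 with sh1, 3.44, 3.55 and 3.41 with sh2 and 2.52, 2.54 and 2.71 with sh3. Every hairpin library was below every control library. The Hepa1-6 lucif libraries went against their label. They held 12.7, 12.8 and 13.6 FPKM of Soat1, where the scram libraries held 0.159, 0.182 and 0.0977, and albumin (Alb) at 1.49 FPKM where scram held 135. Of 14 hepatocyte markers, 4 reached 1 FPKM in these libraries and 9 did so in scram, with summed levels of 36.8 to 42.7 and 382.1 to 416.9 FPKM. They are called the labelled Hepa1-6 lucif libraries here, and no result on the knockdown rests on them. In CT26 with DMSO the epithelial keratin genes Krt8, Krt18 and Krt19 summed to 0.592 to 0.786 FPKM. Of 9 intestinal markers only Krt20 reached 1 FPKM there, with a list sum of 26.2 to 30.2 FPKM, and of 12 leukocyte markers only Cd14 did.

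Most members were expressed in both lines. In CT26 with DMSO, 32 of 37 members reached a mean of 1 FPKM, and the summed level of the 37 was 1495 ± 40.7 FPKM (SD, n = 3 libraries), or 0.448% of all FPKM. In Hepa1-6 with DMSO, 34 members did so, with a sum of 1780 ± 24.5 FPKM or 0.546%. The 5 highest members of CT26 were Ctsl, Lamp1, Psap, Ctsz and Laptm4a, and those of Hepa1-6 were Ctsd, Lamp1, Ctsz, Psap and Cd63. Ctsc, Ctsk and Ctss, cathepsins best known from immune cells and osteoclasts, stayed under 1 FPKM in all 10 groups. Ctsh, an aminopeptidase, was listed at 0 in all 6 CT26 libraries of the drug experiment and stood at 2.41, 2.45 and 2.51 FPKM in Hepa1-6 with DMSO. The spread within groups was small: the median coefficient of variation of the members lay between 2.83% and 4.57% in the 10 groups. Asah1, the acid ceramidase gene, had the widest spread, with 33.9% in CT26 lucif and 33.4% in sh1. FPKM are per length, so the order of levels compares genes. In bulk RNA, fewer cells of a type and less RNA per cell cannot be told apart.

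**Figure D1:**
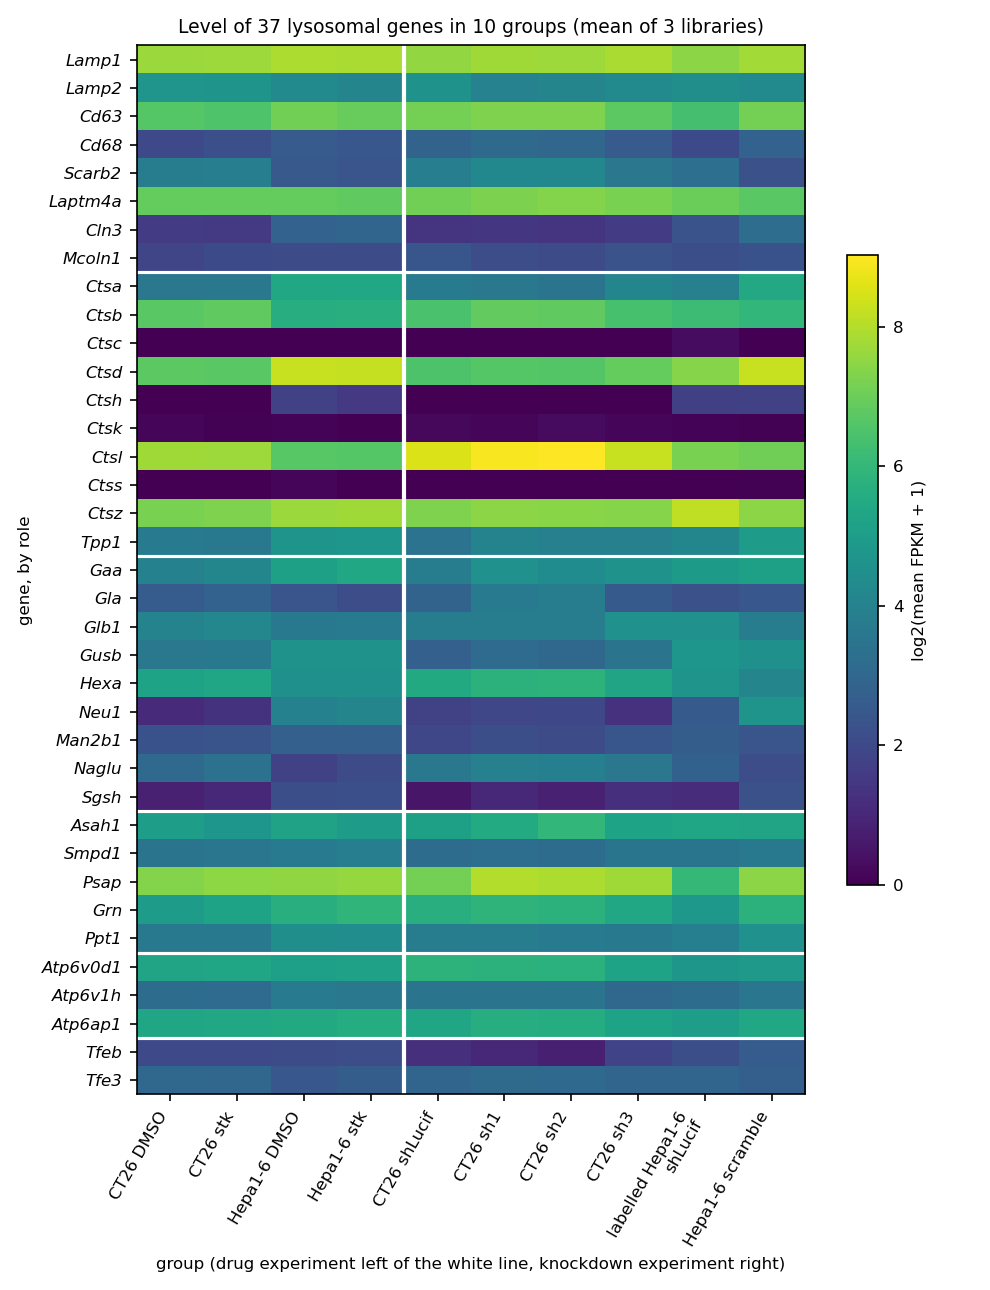
Heat map of the mean level of the 37 genes (rows, grouped by role) in the 10 groups (columns), as log2 of mean FPKM + 1 over 3 libraries. Ctsl, Lamp1, Psap and Ctsz are bright in every column, and Ctsc, Ctsk and Ctss are dark in every column.

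The baseline comparison of the lines under DMSO asks which members differ in level before any treatment. Of 34 members tested with limma, 10 were higher in CT26 and 21 lower, beside 38.5% and 38.4% of the 12822 genes tested (76.8% in either direction). These shares stand beside the counts per role below too. Ctsh and Sgsh were under 1 FPKM in every CT26 DMSO library and were tested only because Hepa1-6 libraries reached that level. Their entry thus depended on the group where they are high. The median member difference, CT26 minus Hepa1-6 on the log2 scale of FPKM + 1, was -0.24, and that of all genes -0.01. Line and culture history cannot be told apart here, and most genes of the genome differed too. No call changed direction in the alternatives in which the member was tested, and Mcoln1 was the only member of the 31 to lose its call there (without CT26 DMSO library 2 or 3 or Hepa1-6 DMSO library 2, adjusted p = 0.0586 to 0.0868).

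Glycan-degrading enzymes split, with 4 of 9 higher in CT26 and 5 lower. Neu1, the sialidase, had the widest gap among members detected in both lines, with 1.28, 1.28 and 0.977 FPKM in CT26 and 16.5, 14.0 and 13.8 in Hepa1-6. The libraries of the lines were far apart, a log2 difference of -2.85 (SE 0.0956, adjusted p = 2.07e-10). Its gene lies on chromosome 17, 34931253 to 34935953 (GRCm38). Sgsh, which removes sulfate from heparan sulfate, stood at 0.755, 0.815 and 0.811 in CT26 and 3.38, 3.83 and 3.14 FPKM in Hepa1-6, a difference of -1.31. Gaa, the acid glucosidase that frees glucose from glycogen, stood at 14.8, 14.4 and 14.3 against 36.6, 35.1 and 29.8 FPKM. Gusb, the beta-glucuronidase, stood at 11, 11.7 and 11.1 against 23.2, 24.0 and 23.1 FPKM. Both were lower in every CT26 library than in any Hepa1-6 library (differences -1.16 and -0.99). Naglu, another enzyme of heparan sulfate breakdown, ran the other way, with 7.39, 7.76 and 7.31 FPKM in CT26 and 2.10, 2.57 and 2.44 in Hepa1-6 (1.33, SE 0.138, adjusted p = 4.11e-06). Man2b1, a mannosidase, had a difference of -0.49, Hexa, a subunit of beta-hexosaminidase, a difference of 0.69, Glb1, the beta-galactosidase, of 0.40, and Gla, the alpha-galactosidase, of 0.27. Sgsh and Naglu act on the same glycan and differed between the lines in opposite directions. Sgsh is among the 5 lower members and was tested only through Hepa1-6, where it is high, so its call is no support.

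Among 7 proteases tested, 2 were higher in CT26 and 5 lower. Ctsd, the aspartic cathepsin, stood at 110.1, 105 and 106 FPKM in CT26 and 309, 311 and 294 in Hepa1-6, a difference of -1.50 (SE 0.0371, adjusted p = 1.43e-11). Ctsa, the protective protein that stabilises NEU1 and GLB1, stood at 10.96, 10.6 and 10.9 against 43.8, 41.1 and 41.2 FPKM (-1.86, SE 0.0485, adjusted p = 2.30e-11). Ctsb and Ctsl, which are cysteine cathepsins, went the other way. Ctsb stood at 105, 104 and 101 in CT26 and 49.4, 47.4 and 48.3 FPKM in Hepa1-6, a ratio of means of 2.13 and a difference of 1.08 (SE 0.03, adjusted p = 4.07e-11). Ctsl stood at 198, 248 and 192 against 101, 97.2 and 103 FPKM (1.06, SE 0.0775, adjusted p = 1.92e-07), and its lowest CT26 library was still above its highest Hepa1-6 library. Tpp1, a tripeptidase, stood at 12.2, 12.0 and 12.4 against 26.1, 24.9 and 23.3 FPKM, a difference of -0.96. Ctsz had a difference of -0.48. CT26 thus held more mRNA of Ctsb and Ctsl, and Hepa1-6 more of Ctsd, Ctsa, Ctsz and Tpp1. Ctsh, listed at 0 in CT26, is among the 5 lower members and was tested only through Hepa1-6, where it is high.

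Of the 8 membrane genes, 2 were higher in CT26 and 5 lower. Scarb2, an integral protein of the lysosomal membrane, stood at 13.4, 12.6 and 12.8 FPKM in CT26 and 4.64, 4.60 and 4.75 in Hepa1-6 (1.30, SE 0.0406, adjusted p = 1.11e-10). Lamp2 was higher in CT26 too, with 24.4, 24.6 and 25.6 against 18.4, 17.9 and 18.6 FPKM (0.42). Its relative Lamp1 was lower there, with 204, 197 and 202 against 245, 240.5 and 239 FPKM (-0.26). The Lamp1 and Lamp2 libraries of the lines did not overlap in either case. Cln3, a membrane protein whose loss causes a storage disease, stood at 2.12, 1.80 and 2.22 FPKM in CT26 and 6.00, 5.70 and 6.54 in Hepa1-6 (-1.22). Cd68 and Cd63 had differences of -0.57 and -0.43, and Mcoln1, the calcium channel of the lysosome, of -0.19. Laptm4a did not pass the test (-0.01, adjusted p = 0.913).

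Genes of lipid breakdown were lower in CT26 in 4 of 5 cases, and none was higher. Ppt1, a thioesterase, had a difference of -0.84, Grn, the progranulin precursor, of -0.65, Smpd1, the acid sphingomyelinase, of -0.23, and Psap, the precursor of the saposins that help sphingolipid hydrolases, of -0.18. Asah1 was not called. Among pump genes, Atp6v1h (-0.56) and Atp6ap1 (-0.17) were lower in CT26 and Atp6v0d1 was higher (0.19). Tfe3 was higher in CT26, with 6.91, 7.03 and 7.06 FPKM against 4.75, 4.00 and 4.51 (0.56). Tfeb stood at 3.01, 2.96 and 2.99 in CT26 and 3.13, 2.92 and 3.54 FPKM in Hepa1-6, which overlapped (-0.07, adjusted p = 0.493).

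The same contrast can be read in the knockdown experiment, from other libraries, as scram of Hepa1-6 against lucif of CT26. That comparison was chosen after the data were seen, since the labelled Hepa1-6 lucif libraries went against their label. Of 34 members, 16 were higher in Hepa1-6 scram and 10 lower, beside 39.1% and 40.8% of 13129 genes (79.9% in either direction). Of the 21 members higher in Hepa1-6 with DMSO, 15 (71.4%) were higher in scram, and they made up 93.8% of the 16. The 15 include Ctsh, listed at 0 in CT26 and tested only through Hepa1-6, where it is high. They also include Sgsh, at 0.494, 0.439 and 0.408 FPKM in CT26 lucif and tested only through other groups, where it is higher. The places of Ctsh and Sgsh among the 15 are no support. Of the 10 members higher in CT26 with DMSO, 9 (90%) were higher in CT26 lucif, and 0 were called in opposite directions. Of all genes called higher in Hepa1-6 with DMSO, 76.4% were higher in scram too, of those called higher in CT26 77.4% were higher in CT26 lucif, and 7.64% of the called genes were called in opposite directions. Neu1 again had the widest gap among members detected in both lines, 2.52, 2.44 and 2.26 FPKM in CT26 lucif and 24.4, 23.7 and 25.8 in scram (Hepa1-6 minus CT26, 2.91), and Ctsd had a difference of 1.79 and Scarb2 of -1.61. Tfeb, which did not pass the test between the lines under DMSO, was higher in scram (5.19, 4.76 and 5.52 FPKM) than in CT26 lucif (1.19, 1.33 and 1.47, difference 1.40). With the labelled Hepa1-6 lucif libraries in place of scram, 14 members were higher than in CT26 lucif and 17 lower, beside 39.4% and 33.0% of all genes, and 9 of the 31 members called under DMSO (29.0%) were called in the opposite direction, beside 17.2% of all genes called there. Those 9 were Atp6ap1, Atp6v1h, Cd63, Cd68, Glb1, Grn, Lamp1, Mcoln1 and Psap, of which Lamp1 lost its call in 4 of 6 fits without 1 library (CT26 lucif library 1 or 3 or labelled Hepa1-6 lucif library 2 or 3, adjusted p = 0.0583 to 0.0785).

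**Figure D2:**
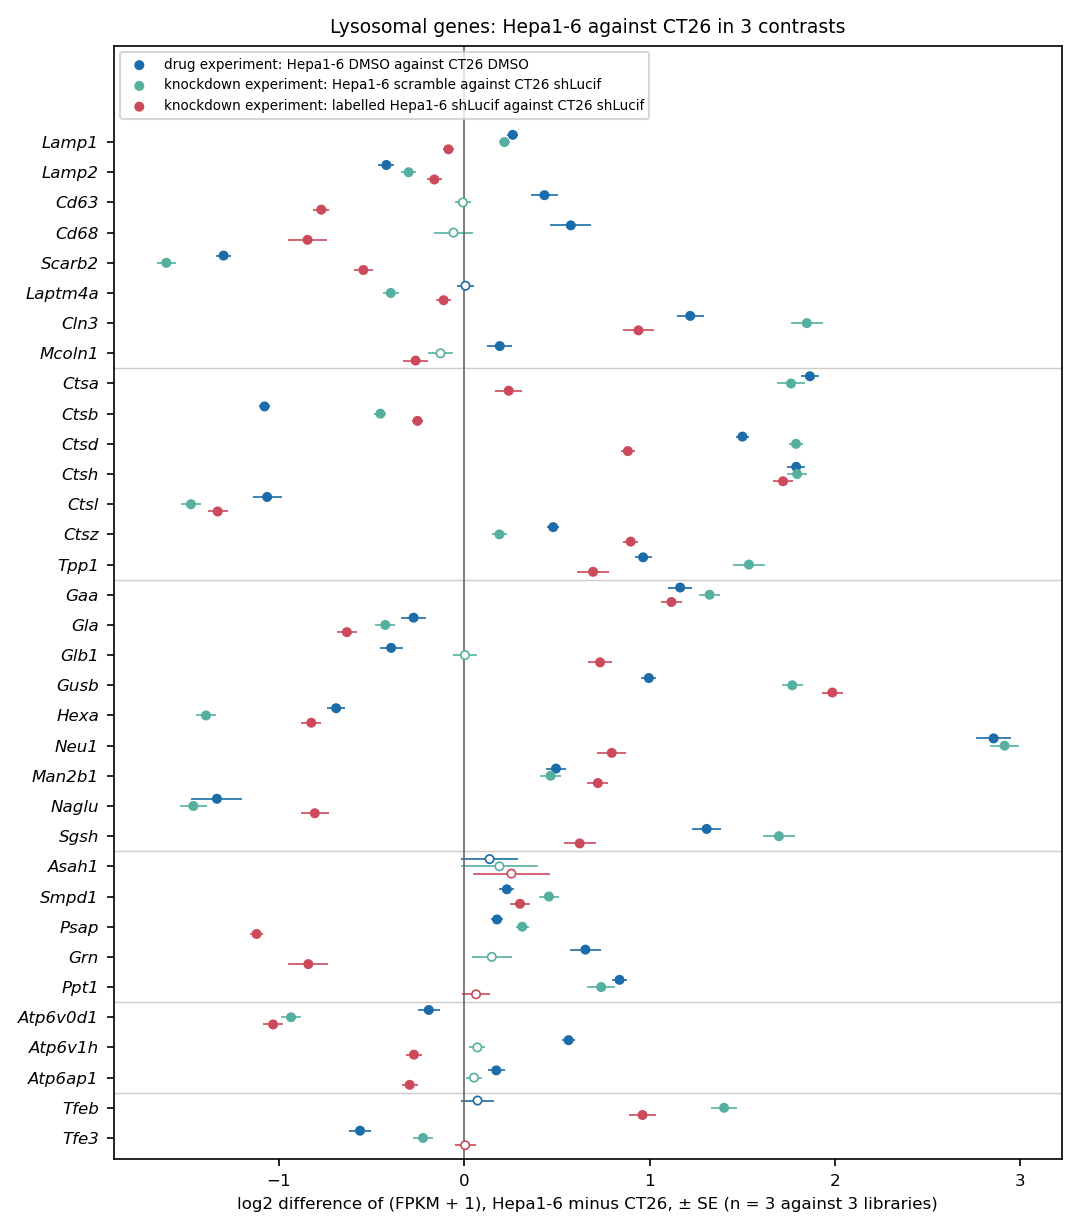
Log2 difference of FPKM + 1 (x axis, Hepa1-6 minus CT26, bars ± SE, n = 3 against 3 libraries) for 34 members in 3 contrasts. Filled circles passed limma at an adjusted p under 0.05, and open circles did not. The DMSO and scram points lie on the same side of 0 for Neu1, Ctsd, Ctsa and Scarb2, the labelled lucif points of Psap, Grn and Lamp1 lie on the other side, and the Ctsh points depend on the pseudocount since CT26 lists Ctsh at 0.

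The direct comparison of scram with the labelled Hepa1-6 lucif libraries called 18 of 34 members higher and 12 lower, beside 31.4% and 36.8% of 12055 genes (68.2% in either direction). Psap stood at 62.2, 61.7 and 68.5 FPKM in the labelled lucif libraries and 174, 172 and 179 in scram (1.43, SE 0.0474, adjusted p = 5.54e-07). Neu1 stood at 4.22, 5.34 and 5.22 against 24.4, 23.7 and 25.8 FPKM (2.12), and Ctsa at 12.9, 14.4 and 15.2 against 43.5, 39.9 and 44.3 (1.52). Scarb2 was lower in scram, with 8.62, 8.71 and 9.17 FPKM in the labelled lucif libraries and 3.77, 3.80 and 3.55 in scram (-1.06). None of these 4 genes overlapped between the groups. The hepatocyte and Soat1 levels given above moved with these differences, and their part in the result was not tested.

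In CT26, the Soat1 hairpins sh1 and sh2 came with higher mRNA of many lysosomal hydrolases, while sh3 came with both rises and falls. The summed level of the 37 genes was 1689 ± 41.7 FPKM in lucif, 2102 ± 22.4 with sh1, 2113 ± 20.95 with sh2 and 1745 ± 25.6 with sh3. Abundant members weigh most in this sum. Mean Ctsl was 371 FPKM in lucif, 493 with sh1, 519 with sh2 and 303 with sh3, and mean Psap 141, 251, 239 and 210. Against lucif, sh1 called 20 of 33 tested members higher and 2 lower, beside 19.1% and 18.7% of 11832 genes (37.8% in either direction). With sh2 the counts were 19 and 4, beside 18.9% and 20.0% of all genes (38.9%). With sh3 they were 15 and 11, beside 30.9% and 21.6% (52.5%). Each count of higher members includes Sgsh, which was tested only through hairpin libraries in which it is high. With the trend over transcript length removed from the fold changes, sh3 had 12 members higher and 15 lower. The median log2 fold change of the members was 0.20, 0.16 and 0.00 with sh1, sh2 and sh3, and that of all genes -0.01 with sh1 and sh2 and 0.04 with sh3. For the mean of the 3 hairpins, 19 members were higher and 4 lower, beside 23.4% and 19.8% of all genes (43.1%). The 3 comparisons share the lucif libraries, so their values are given side by side and not as independent repeats. For some members, CT26 with DMSO in the drug experiment lay nearer to sh3 than to lucif. Mean FPKM with DMSO, in lucif and with sh3 were 37.75, 55.7 and 36.8 for Atp6v0d1 and 2.99, 1.33 and 2.53 for Tfeb. For others DMSO lay nearer to lucif, such as Gaa (14.5, 12.8 and 24.1) and Lamp2 (24.9, 23.4 and 18.7). The experiments are separate, and this was not tested.

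Over the hairpins, 10 members rose with all 3 (Lamp1, Laptm4a, Ctsd, Ctsz, Tpp1, Gaa, Gusb, Man2b1, Sgsh and Psap), and Lamp2 fell with all 3. With Sgsh counted, the 10 are 30.3% of the 33 members tested, where 8.70% of the 11832 genes rose with all 3 hairpins and 5.90% fell with all 3. Sgsh was under 1 FPKM in every lucif and sh2 library. It was tested only through sh3 and the first column of sh1, where it is high, so its place among the 10 is no support. Another 5 rose with sh1 and sh2 and fell with sh3 (Cd63, Scarb2, Ctsl, Gla and Hexa), and 3 rose with sh1 and sh2 and were not called with sh3 (Ctsb, Naglu and Atp6ap1), beside 2.87% and 4.40% of all genes. Glb1, Smpd1 and Cln3 rose with sh3 alone, and Neu1, Grn, Atp6v0d1 and Atp6v1h fell with sh3 alone, beside 14.3% and 9.56% of all genes. Tfeb and Ctsa fell with sh2 and rose with sh3, with no call for sh1. Tfeb was called lower with sh1 under quantile normalization, protein-coding genes alone, removal of the length trend or all knockdown libraries in 1 model. Mcoln1 fell with sh1 and sh2, Cd68 rose with sh1 and fell with sh3, Tfe3 rose with sh1, Asah1 rose with sh2, and Ppt1 was not called. Ctsc, Ctsh, Ctsk and Ctss were too low to be tested. With no filter on low values, the sh2 calls of Ctsa, Man2b1 and Sgsh (adjusted p = 0.0855, 0.0949 and 0.0542) and the sh3 calls of Cln3, Ctsz, Grn and Laptm4a (0.102, 0.0809, 0.055 and 0.0793) were lost. With the trend over transcript length removed, those of Cln3, Ctsz and Laptm4a with sh3 were lost (0.152, 0.0888 and 0.261). In that setting Ctsb, Ppt1, Mcoln1 and Atp6ap1 were called lower with sh3. These counts use the threshold in each comparison, and the difference between hairpins is tested further on.

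**Figure D3:**
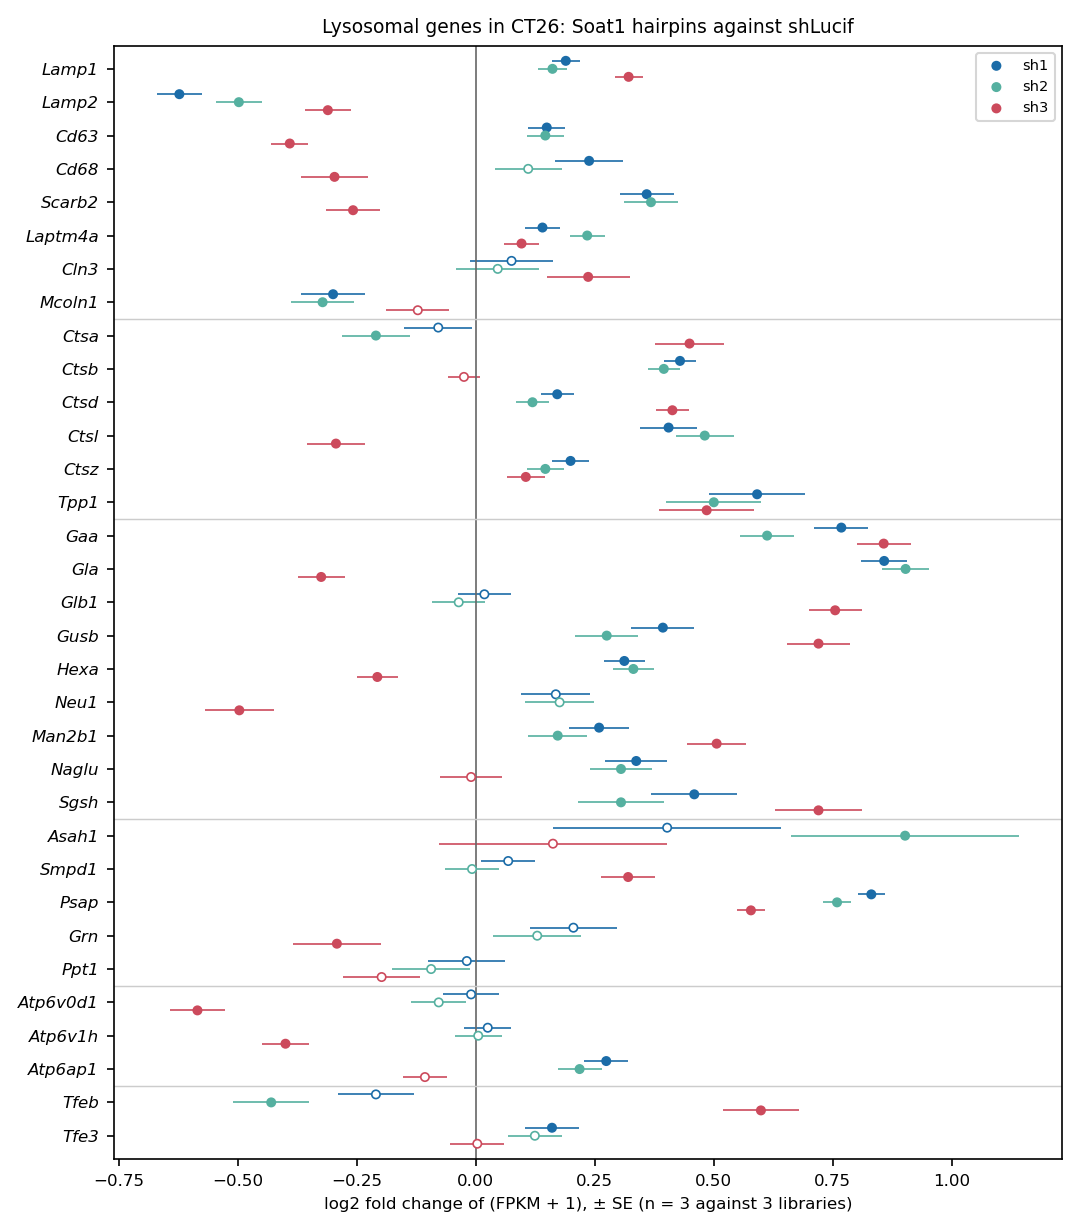
Log2 fold change of FPKM + 1 against lucif (x axis, bars ± SE, n = 3 against 3 libraries) of 33 members with sh1, sh2 and sh3 in CT26, grouped by role. Filled circles passed limma at an adjusted p under 0.05, and open circles did not. The sh1 and sh2 points lie side by side, while the sh3 points of Gla, Ctsl, Neu1 and Atp6v0d1 lie to the left of 0 and those of Glb1 and Tfeb to the right.

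Lipid breakdown held the member with the lowest p-values. Psap (ENSMUSG00000004207, GRCm38 chromosome 10, 60277627 to 60302597) stood at 139, 139.8 and 143 FPKM in lucif, 253, 255 and 245 with sh1, 236, 237 and 243 with sh2 and 208, 209 and 214 with sh3. Each hairpin library was above each control library. The log2 fold changes were 0.83 (SE 0.0289, adjusted p = 1.98e-08) with sh1, 0.76 (adjusted p = 3.23e-08) with sh2 and 0.58 (adjusted p = 9.56e-08) with sh3. Asah1, the acid ceramidase, scattered within groups, with 46.9, 27.7 and 26.5 FPKM in lucif and 32.5, 40.7 and 61.5 with sh1, which overlapped (0.40, adjusted p = 0.216). With sh2 it stood at 62.7, 60.4 and 62.0 FPKM, above every lucif library, and the difference passed (0.90, SE 0.239, adjusted p = 0.0119). Smpd1, the acid sphingomyelinase, rose with sh3, from 8.69, 8.07 and 7.77 to 10.4, 10.8 and 10.2 FPKM (0.32, adjusted p = 6.64e-04). Grn stood at 47.6, 46.2 and 54.5 FPKM in lucif and fell with sh3 to 41.9, 34.8 and 44.1 (-0.29, adjusted p = 0.0201). That call was lost without lucif library 3 or sh3 library 2 (adjusted p = 0.08 to 0.0824).

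Of the 9 glycan-degrading enzymes, 7 rose with sh1, 7 with sh2 and 5 with sh3, and 3 fell with sh3. Sgsh is in each count of rises and was tested only through hairpin libraries in which it is high. Over all genes, 19.1% rose with sh1, 18.9% with sh2 and 30.9% with sh3, and 21.6% fell with sh3. Gaa (chromosome 11, 119267887 to 119285454) stood at 12.7, 13.1 and 12.7 FPKM in lucif, 23.9, 20.9 and 23.0 with sh1, 19.1, 20.9 and 20.6 with sh2 and 25.4, 23.5 and 23.3 with sh3. Its control libraries lay below all 9 hairpin libraries, with fold changes of 0.77 (SE 0.0565, adjusted p = 2.12e-06) for sh1, 0.61 for sh2 and 0.86 for sh3. Gla (chromosome X, 134588149 to 134601125), the enzyme missing in Fabry disease, stood at 6.57, 6.32 and 6.08 FPKM in lucif, 11.9, 12.5 and 12.4 with sh1 and 13.2, 11.9 and 13.0 with sh2. With sh3 it stood at 4.98, 4.78 and 4.78 FPKM. It thus rose with sh1 (0.86, SE 0.049, adjusted p = 4.30e-07) and sh2 (0.90, adjusted p = 2.42e-07) and fell with sh3 (-0.33, adjusted p = 2.17e-04), with no overlap of libraries in any of the 3 comparisons. Glb1 stood at 12.4, 13.6 and 13.4 FPKM in lucif, 13.4, 13.6 and 12.8 with sh1, 11.8, 12.9 and 13.6 with sh2 and 23.4, 22.2 and 22.9 with sh3. Only the sh3 libraries lay apart from the controls (0.76, SE 0.0555, adjusted p = 1.29e-06), and the sh1 value was 0.02 (adjusted p = 0.831). Gla and Glb1 both carry the motif shown above.

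Gusb stood at 5.68, 5.69 and 5.83 FPKM in lucif and rose to 8.32, 7.92 and 7.31 with sh1, 6.95, 7.56 and 6.95 with sh2 and 10.5, 10.8 and 9.06 with sh3 (fold changes 0.39, 0.28 and 0.72). Sgsh stood at 0.494, 0.439 and 0.408 FPKM in lucif, 1.25, 0.926 and 0.819 with sh1, 0.791, 0.694 and 0.880 with sh2 and 1.47, 1.51 and 1.19 with sh3. At this low level the pseudocount of 1 shrinks its fold changes (0.46, 0.30 and 0.72), and the sh2 call was lost in 4 of 6 fits without 1 library (lucif library 2 or 3 or sh2 library 1 or 3, adjusted p = 0.0507 to 0.0687). Naglu rose with sh1 and sh2 (0.34 and 0.30) and had a value of -0.01 with sh3. Hexa stood at 43.2, 45.5 and 43.1 FPKM in lucif, 53.0, 55.1 and 56.2 with sh1, 55.7, 52.9 and 57.9 with sh2 and 36.8, 37.7 and 39.2 with sh3, so that it rose with sh1 and sh2 (0.31 and 0.33) and fell with sh3 (-0.21). Man2b1, a lysosomal mannosidase, rose with sh1 (0.26) and sh3 (0.51). Its sh2 call (0.17) was lost in 5 of 6 fits without 1 library (lucif library 1, 2 or 3 or sh2 library 2 or 3, adjusted p = 0.0595 to 0.183). Neu1 stood at 2.52, 2.44 and 2.26 FPKM in lucif, 2.50, 2.90 and 3.10 with sh1, 2.76, 2.77 and 3.01 with sh2 and 1.33, 1.57 and 1.33 with sh3. It fell with sh3 alone (-0.50, SE 0.0723, adjusted p = 1.66e-04), and the sh1 value was 0.17 (adjusted p = 0.0913).

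Among 6 proteases tested, 5 rose with sh1, 5 with sh2 and 4 with sh3, and 1 fell with each of sh2 and sh3. The shares of all genes that rose were 19.1%, 18.9% and 30.9%, and 20.0% fell with sh2 and 21.6% with sh3. Ctsl (chromosome 13, 64359337 to 64370890), the most abundant member in CT26, stood at 385, 368 and 362 FPKM in lucif, 523, 468 and 487 with sh1, 487, 531 and 539.5 with sh2 and 327, 284 and 298 with sh3. No hairpin library overlapped the controls, with fold changes of 0.41 (SE 0.0606, adjusted p = 3.74e-04) for sh1, 0.48 (adjusted p = 1.08e-04) for sh2 and -0.29 (adjusted p = 0.0018) for sh3. Ctsb stood at 87.6, 85.2 and 82.1 FPKM in lucif, 115, 116 and 113 with sh1, 112, 110 and 114 with sh2 and 84.8, 80.8 and 84.7 with sh3. It rose with sh1 (0.43, SE 0.0339, adjusted p = 3.58e-06) and sh2 (0.40), and its sh3 libraries overlapped the controls (-0.03, adjusted p = 0.555). Ctsd stood at 90.0, 86.3 and 89.8 FPKM in lucif, 104, 99.5 and 96.9 with sh1, 97.5, 95.2 and 96.5 with sh2 and 116, 119 and 120.5 with sh3, and its rise was larger with sh3 (0.41) than with sh1 (0.17) or sh2 (0.12). The sh2 call of Ctsd was lost without lucif library 2 or sh2 library 1 (adjusted p = 0.0534 to 0.0742).

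Tpp1, the peptidase missing in a form of Batten disease, stood at 9.10, 12.1 and 8.62 FPKM in lucif, 16.6, 14.5 and 14.9 with sh1, 14.0, 14.3 and 14.7 with sh2 and 13.9, 15.1 and 13.6 with sh3. All hairpin libraries were above the controls (0.59, 0.50 and 0.48). Ctsa stood at 12.2, 12.1 and 11.3 FPKM in lucif, 10.04, 10.96 and 9.34 with sh2 and 15.6, 17.5 and 16.4 with sh3. It rose with sh3 (0.45, SE 0.0716, adjusted p = 3.22e-04), while its fall with sh2 (-0.21, adjusted p = 0.0381) was lost in 4 of 6 fits without 1 library (lucif library 1 or 2 or sh2 library 1 or 3, adjusted p = 0.0859 to 0.134). Ctsz rose by 0.20 with sh1, 0.15 with sh2 and 0.10 with sh3 on the log2 scale. Its sh3 call was lost in 5 of 6 fits without 1 library (all but lucif library 1, adjusted p = 0.0682 to 0.16), and its sh2 call without lucif library 2 or 3 (0.0503 to 0.0567).

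Of the 8 membrane genes, 5 rose and 2 fell with sh1, 4 and 2 with sh2, and 3 and 4 with sh3. Over all genes, 19.1% rose and 18.7% fell with sh1, 18.9% and 20.0% with sh2, and 30.9% and 21.6% with sh3. Lamp1 (chromosome 8, 13159161 to 13175338) stood at 191, 182 and 189 FPKM in lucif, 215, 214 and 212 with sh1, 210, 209 and 209 with sh2 and 234, 240.2 and 229 with sh3. It rose with each hairpin by a small amount (0.19, 0.16 and 0.32), and no hairpin library reached down to the controls. Lamp2 (chromosome X, 38401357 to 38456454), which also serves chaperone-mediated autophagy, ran the other way, with 24.4, 22.9 and 23.0 FPKM in lucif, 14.2, 14.7 and 15.8 with sh1, 16.8, 15.6 and 16.6 with sh2 and 18.5, 18.9 and 18.7 with sh3. Its fold changes were -0.62 (SE 0.0476, adjusted p = 2.78e-06) with sh1, -0.50 (adjusted p = 1.48e-05) with sh2 and -0.31 (adjusted p = 2.43e-04) with sh3. Mcoln1 stood at 4.35, 4.54 and 4.12 FPKM in lucif, 3.47, 3.38 and 3.16 with sh1, 2.93, 3.26 and 3.65 with sh2 and 3.96, 4.03 and 3.73 with sh3. It fell with sh1 (-0.30, adjusted p = 0.00455) and sh2 (-0.32, 0.00294) and was not called with sh3 (-0.12, 0.149).

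Cd63, a tetraspanin of late endosomes and exosomes, stood at 142, 138 and 137 FPKM in lucif, 154, 159 and 150 with sh1, 155, 151 and 156 with sh2 and 104, 102 and 111 with sh3. Scarb2 stood at 13.1, 13.8 and 13.1 FPKM in lucif, 16.3, 17.0 and 19.0 with sh1, 17.3, 17.6 and 17.7 with sh2 and 10.4, 11.2 and 11.5 with sh3. Both rose with sh1 and sh2 and fell with sh3 (-0.39 and -0.26 with sh3), and neither had an overlap of hairpin and control libraries. Cd68, a glycoprotein best known as a macrophage marker, stood at 6.27, 6.41 and 6.31 FPKM in lucif and fell with sh3 to 4.92, 5.07 and 4.91 (-0.30). Its rise with sh1 (0.24) was lost in 4 of 6 fits without 1 library (lucif library 1 or 3, or the first or second column of sh1, adjusted p = 0.0553 to 0.072) and in a single model over all knockdown libraries (adjusted p = 0.0873). Laptm4a rose with sh1 (0.14) and sh2 (0.23), while its sh3 call (0.10) was lost in each of 6 fits without 1 library (adjusted p = 0.0505 to 0.151). The Cln3 call with sh3 (0.24) was lost in 5 of 6 such fits (all but sh3 library 3, 0.07 to 0.163).

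Among genes of the proton pump and the transcription factors, 2 pump genes fell and Tfeb rose with sh3, beside 21.6% and 30.9% of all genes. Atp6v0d1 stood at 57.9, 51.9 and 57.2 FPKM in lucif, 53.7, 56.3 and 55.6 with sh1, 54.2, 50.01 and 53.8 with sh2 and 33.9, 38.1 and 38.4 with sh3. All 3 sh3 libraries lay far below the controls, while 1 sh2 library lay just under them and the rest within their range. The fold change with sh3 was -0.58 (SE 0.0581, adjusted p = 1.04e-05). Atp6v1h stood at 10.3, 10.1 and 9.68 FPKM in lucif and 7.26, 7.42 and 7.32 with sh3 (-0.40, SE 0.0495, adjusted p = 5.08e-05). Atp6ap1, an accessory subunit, rose with sh1 (0.27) and sh2 (0.22) and had a value of -0.11 with sh3 (adjusted p = 0.0724). Tfeb stood at 1.19, 1.33 and 1.47 FPKM in lucif, 1.09, 0.966 and 0.983 with sh1, 0.547, 0.808 and 0.845 with sh2 and 2.48, 2.67 and 2.44 with sh3. It rose with sh3 (0.60, SE 0.0797, adjusted p = 8.60e-05) and fell with sh2 (-0.43, adjusted p = 0.00151), and with sh1 the value was -0.21. Tfe3 stood at 6.497, 6.66 and 6.99 FPKM in lucif and 8.17, 7.34 and 7.36 with sh1. Its sh1 call (0.16, adjusted p = 0.0454) was lost in 5 of 6 fits without 1 library (lucif library 1, 2 or 3, or the first or second column of sh1, 0.0514 to 0.159). It was lost too with no filter on low values (0.0793) and with quantile normalization (0.0812).

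**Figure D4:**
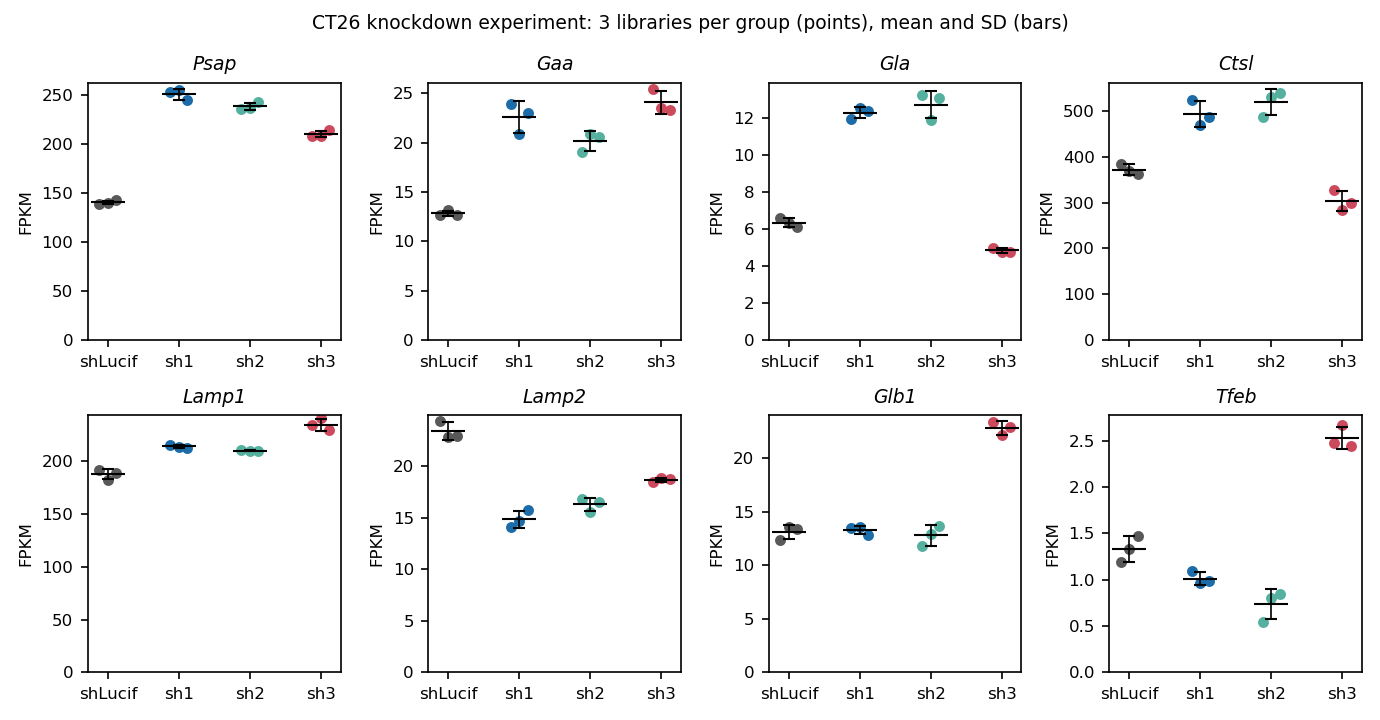
FPKM (y axis, from 0) of 8 members in each of the 3 libraries of CT26 lucif, sh1, sh2 and sh3 (points), with the mean and SD (bars). Psap and Gaa are above lucif with every hairpin and Lamp2 is below it, while the sh3 libraries of Gla and Ctsl lie under lucif and those of Glb1 and Tfeb above all others.

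Whether the hairpins differ was tested directly. Between sh1 and sh2, a comparison chosen after the data were seen, limma called 0 of 33 members, beside 0.0169% of 11832 genes (0.00845% in each direction), and the lowest adjusted p of a member was 0.565. The median absolute distance between fold changes of the 33 members was 0.068 on the log2 scale for sh1 and sh2, 0.327 for sh1 and sh3 and 0.405 for sh2 and sh3. Over all 11832 genes tested it was 0.062, 0.232 and 0.236. Set against the average of the first pair of hairpins, sh3 had 12 members higher and 16 lower of 33, beside 35.5% and 24.7% of all genes (60.2% in either direction). The 12 include Sgsh, which was tested only through sh3 and the first column of sh1, so its call is no support. The median member difference was -0.14, and that of all genes 0.06. With the trend over transcript length removed, the counts were 10 higher and 19 lower. The mean Soat1 level with sh3 was 0.130 of lucif, that with sh1 0.164 and that with sh2 0.174.

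The widest difference was in Gla, lower with sh3 by a log2 difference of -1.21 (SE 0.0425, adjusted p = 2.41e-09). Ctsl (-0.74, adjusted p = 5.03e-07), Neu1 (-0.67, 4.02e-06), Scarb2 (-0.62, 1.09e-06), Atp6v0d1 (-0.54, 3.86e-06), Cd63 (-0.54, 1.90e-07), Hexa (-0.53, 4.93e-07) and Ctsb (-0.44, 3.29e-07) were lower with sh3 as well. On the other side, Tfeb was higher with sh3 (0.92, SE 0.069, adjusted p = 7.43e-07), as were Glb1 (0.76, 2.08e-07), Ctsa (0.59, 9.46e-06), Gusb (0.39) and Ctsd (0.27). Psap, called higher with all hairpins, was lower with sh3 than with the other hairpins (-0.22, adjusted p = 2.00e-05). Tpp1 did not pass (-0.06, adjusted p = 0.57), nor did Asah1 (-0.49, 0.0608), whose libraries scattered.

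Marker genes of other cell types moved with the hairpins as well. Of 12 leukocyte markers, Cd14 alone reached 1 FPKM in CT26, and the list summed to 17.3 to 17.4 FPKM in lucif, 23.2 to 25.6 with sh1, 25.1 to 28.4 with sh2 and 36.7 to 41.9 with sh3. Ptprc, the pan-leukocyte gene CD45, was at or near 0 in these groups. The fibroblast list, in which Col1a1, Col1a2 and Pdgfra reached 1 FPKM, summed to 110.6 to 112.5 in lucif, 99.9 to 104.5 with sh1, 93.9 to 101.9 with sh2 and 161.9 to 169.4 with sh3. Of 9 intestinal markers, Krt20 reached 1 FPKM in every CT26 group, Cdx2 with sh1 and sh3 and Cdh17 with sh3. That list summed to 22.51 to 22.54 FPKM in lucif, 25.6 to 35.5 with sh1, 24.1 to 29 with sh2 and 42.8 to 47.3 with sh3. Of 14 hepatocyte markers Afp alone reached 1 FPKM, and the list summed to 5.77 to 7 in lucif, 8.03 to 8.96 with sh1, 7.63 to 8.72 with sh2 and 8.92 to 9.35 with sh3. Their part in the sh3 values was not tested.

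Members with and without GTCACGTG in their window can be set beside each other, without a test. Over all genes, 30.9% were higher and 21.6% lower with sh3, 19.1% and 18.7% with sh1, and 18.9% and 20.0% with sh2. With sh3, 6 of the 10 members with the motif were higher and 2 lower (median log2 fold change 0.28), and of 20 tested members with a window and no such motif 9 were higher and 8 lower (median -0.05). With sh1 the counts were 5 and 1 of 10 with the motif (median 0.12) and 14 and 1 of 20 without it (0.22), and with sh2 they were 5 and 2 (0.08) and 12 and 2 (0.17). The members with the motif that rose most with sh3 include Glb1 and Sgsh, and those that fell with sh3 are Gla and Atp6v0d1. Sgsh was tested only through libraries in which it is high, mainly those of sh3. The 6 higher with sh3 include Sgsh, and Cln3, whose call was lost in 5 of 6 fits without 1 library.

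Other lysosomal genes were followed in lists compiled with earlier results of these data known. Of 24 further hydrolases tested, 11 rose and 5 fell with sh1, 11 and 5 with sh2, and 11 and 3 with sh3 (medians 0.20, 0.16 and 0.14). Over all 11832 genes 19.1% rose and 18.7% fell with sh1, 18.9% and 20.0% with sh2, and 30.9% and 21.6% with sh3. Arsb, which removes sulfate from dermatan sulfate, rose with sh1 (0.65) and sh3 (1.19, adjusted p = 1.87e-07), and Gm2a, the GM2 activator, rose with sh3 (0.84). Ids, an iduronate sulfatase, fell with sh1 (-0.96), and Lgmn, the asparagine endopeptidase, fell with sh3 (-0.67, adjusted p = 6.99e-06). Of 18 further membrane proteins, 7 rose and 2 fell with sh1, 8 and 2 with sh2, and 6 and 3 with sh3.

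Against lucif, further V-ATPase genes fell with sh3. The counts of the following lists stand beside 30.9% of all genes up and 21.6% down with sh3, 19.1% and 18.7% with sh1, and 18.9% and 20.0% with sh2. Of 14 further subunit genes, 1 rose and 10 fell with sh3 (median -0.43), while 3 rose and 3 fell with sh1 (-0.01) and 2 rose and 3 fell with sh2 (-0.07). Atp6v1a, the catalytic subunit, stood at 25.9, 25.1 and 25.8 FPKM in lucif and 13.1, 13.8 and 14.1 with sh3, with no overlap (-0.86, SE 0.0549, adjusted p = 4.76e-07). Atp6v1b2 (-0.91) and Atp6v1d (-0.71) fell with sh3 too, and Atp6v0e rose (0.19, adjusted p = 0.0318). Atp6v1b2 also fell with sh1 (-0.67). In the drug experiment, CT26 with DMSO held means of 16.4 FPKM of Atp6v1a, 21.8 of Atp6v1b2 and 9.25 of Atp6v1d. The lucif means were 25.6, 54.05 and 18.45 and the sh3 means 13.7, 28.3 and 10.9, so DMSO lay nearer to sh3. For Atp6v1f, DMSO lay nearer to lucif (51.6 with DMSO, 55.6 in lucif and 39.8 with sh3). The experiments are separate, and this was not tested. Genes of mTORC1 and TFEB control had 1 up and 9 down of 17 with sh3 (median -0.17), 3 and 2 with sh1 and 2 and 5 with sh2. Among them Fnip2 (-0.84), a folliculin partner, and the Rag GTPase gene Rraga (-0.83) fell with sh3. Autophagy genes had 4 up and 9 down of 19 with sh3 (median -0.10), 6 and 4 with sh1 and 5 and 4 with sh2, with a rise of Wipi1 (0.95) and a fall of Uvrag (-0.61). Uvrag stood at 4.42, 4.16 and 4.38 FPKM in lucif and 1.82, 4.23 and 1.87 with sh3, so that 1 sh3 library lay within the control range. Sorting genes had 2 up and 7 down of 20 with sh3, 5 and 5 with sh1 and 4 and 7 with sh2, with a fall of Rab7 with sh1 (-0.71). Rab7 stood at 144 ± 11.2 FPKM in lucif and 88.9 ± 19.0 with sh1. It scattered within groups of 1 treatment too, with 145, 92.6 and 143 FPKM in CT26 with DMSO.

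Genes that free cholesterol in the lysosome and pass it on were followed too. Npc1 stood at 5.76, 6.08 and 5.63 FPKM in lucif, 10.8, 8.17 and 10.7 with sh1, 9.67, 9.48 and 10.7 with sh2 and 4.09, 4.54 and 4.59 with sh3. It rose with sh1 (0.67, SE 0.0914, adjusted p = 2.01e-04) and sh2 (0.68, adjusted p = 1.76e-04) and fell with sh3 (-0.34, adjusted p = 0.00932), and sh3 differed from the mean of the others by -1.01 (adjusted p = 1.03e-06). Npc2 stood at 39.5, 37.7 and 38.0 FPKM in lucif, 57.6, 61.6 and 57.2 with sh1, 65.2, 61.4 and 60.4 with sh2 and 44.6, 44.0 and 42.2 with sh3. It rose with each (0.60, 0.68 and 0.18), and the rise was smaller with sh3 than with the mean of the others (-0.46, adjusted p = 1.18e-06). Lipa, the acid lipase, stood at 1.63, 1.66 and 1.74 FPKM in lucif, 2.22, 2.22 and 2.62 with sh1, 2.21, 2.40 and 2.18 with sh2 and 3.09, 3.49 and 2.41 with sh3, and rose with each (0.32, 0.28 and 0.57). Gpnmb, a glycoprotein known to rise in cells with lysosomal storage, stood at 20.4 ± 0.721 FPKM in lucif, 35.8 ± 1.41 with sh1, 34.4 ± 1.05 with sh2 and 26.3 ± 1.59 with sh3, and rose with each (0.78, 0.73 and 0.35). The autophagy receptor gene Sqstm1 stood at 262 ± 7.70 FPKM in lucif and 226 ± 5.30 with sh3, where it fell (-0.21, adjusted p = 2.22e-04).

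With stk, no member of the set passed the test in either line. In CT26, limma called 0 of 32 members, beside 0.748% of 11358 genes (0.132% higher and 0.616% lower). In Hepa1-6 it called 0 of 34, beside 1.53% of 11426 (0.683% and 0.849%). Leaving out 1 library moved the count of all called genes from 85 to between 2 and 92 in CT26 and from 175 to between 8 and 59 in Hepa1-6, and left 0 called members in each. At an unadjusted p under 0.05 there were 8 of 32 members in CT26, beside 1656 of 11358 genes. In Hepa1-6 there were 10 of 34, beside 2714 of 11426. The median member fold change was 0.04 in CT26 and 0.00 in Hepa1-6, and the summed level was 1532 ± 16.8 FPKM with stk in CT26 and 1771 ± 38.3 in Hepa1-6. Grn had the lowest adjusted p in CT26, with 31.8, 29.4 and 31.4 FPKM in DMSO and 36.2, 35.5 and 36.97 with stk (0.23, SE 0.0419, adjusted p = 0.0784). Gaa stood at 14.8, 14.4 and 14.3 against 16.9, 17.0 and 15.96 FPKM (0.19, SE 0.0428, adjusted p = 0.12). Neither gene passed.

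In Hepa1-6, Grn stood at 53.7, 52.7 and 41.7 FPKM with DMSO and 55.3, 62.0 and 59.0 with stk (0.25, adjusted p = 0.19), and Gaa at 36.6, 35.1 and 29.8 against 39.7, 39.5 and 41.1 (0.24, 0.126). Ctsh had the lowest adjusted p, with 2.41, 2.45 and 2.51 FPKM and 1.89, 1.69 and 1.93 (-0.29, SE 0.0656, adjusted p = 0.0711). Naglu stood at 2.10, 2.57 and 2.44 against 3.24, 3.02 and 3.54 FPKM (0.34, 0.0792). None of these 4 genes passed. In a single model over all 12 drug libraries, which estimates the spread from more libraries, 4 members were called in Hepa1-6, Gaa and Tfe3 higher and Ctsh and Atp6v1h lower, and 0 in CT26. That is 11.8% of 34 members, beside 7.24% of the 12822 genes in that model. Whether the lines responded differently was tested too, and was called for 0 of 34 members, beside 0.304% of 12822 genes (0.109% with a higher response in CT26, 0.195% with a lower one). At an unadjusted p under 0.05 there were 6 of 34 members, beside 1780 of 12822 genes. Gla came closest, with 5.58, 4.796 and 5.36 FPKM in DMSO and 6.38, 6.02 and 5.78 with stk in CT26, and 4.01, 4.57 and 3.92 against 3.36, 3.54 and 3.10 in Hepa1-6 (difference 0.43, SE 0.0974, adjusted p = 0.116). Its mean was higher with stk in CT26 and lower in Hepa1-6. Of members the text follows throughout, Lamp1 had fold changes of 0.03 in CT26 and -0.05 in Hepa1-6, Ctsb 0.10 and 0.03, Ctsd -0.02 and -0.04, Ctsl -0.02 and -0.04, Mcoln1 0.11 and -0.03, and Tfeb 0.01 and 0.07. None of the other 6 lists of lysosomal genes had a called member with stk in either line, and Npc1 had values of 0.14 in CT26 (adjusted p = 0.318) and 0.27 in Hepa1-6 (0.0582). In CT26, Soat1 had 12.3 ± 0.215 FPKM under DMSO and 12.8 ± 0.730 under stk. In Hepa1-6 it was too low to be tested, with 0.139 ± 0.0162 FPKM under DMSO and 0.0809 ± 0.0388 under stk.

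**Figure D5:**
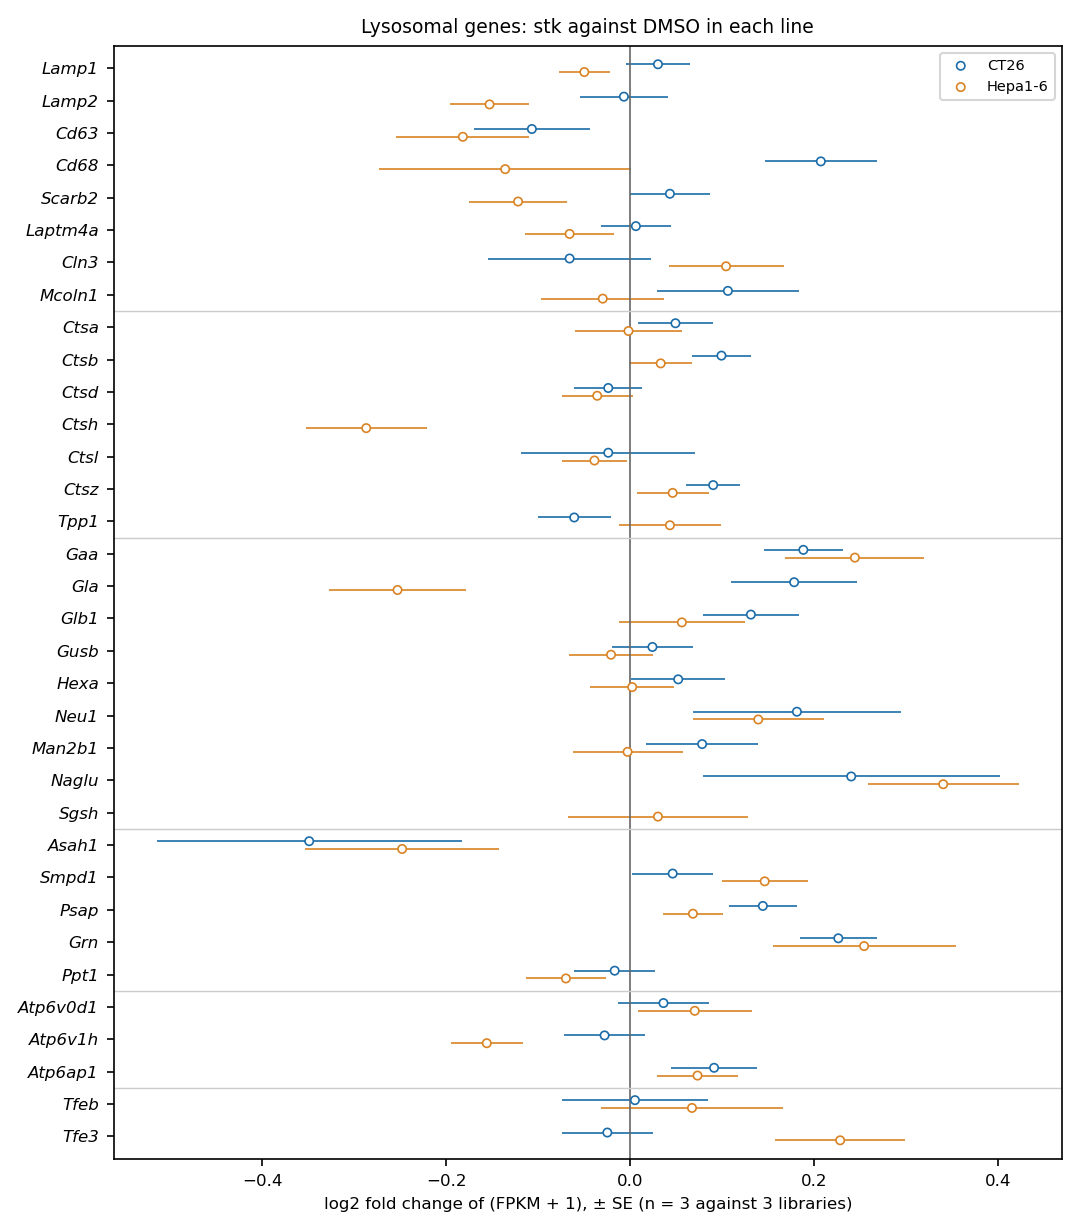
Log2 fold change of FPKM + 1 with stk against DMSO (x axis, bars ± SE, n = 3 against 3 libraries) of the members tested in CT26 and in Hepa1-6, grouped by role. All circles are open, since 0 members passed limma at an adjusted p under 0.05 in either line.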

How the data were processed

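The members and the gene lists were chosen with earlier results of these data known. The deposited values are FPKM that the authors made as 1 table per experiment, with 55335 genes each, of which 55154 have an ID in GENCODE M21. Each deposited table carries a name that points to the other experiment, and the headers of its columns decided which experiment it holds. Per the labels' protocols, total RNA was extracted with TRIzol, some libraries were made with a SMARTer kit, reads were paired, and Skewer trimmed them. Per the submitters' processing notes, the build was GRCm38 and the tools were HISAT2, STAR, DESeq2 and edgeR, with no role or version stated there. Of 45 labelled samples, 30 have a matching column (12 for the drug experiment, 18 for the knockdown). The other 21 columns match no label and were not used, and the Hepa1-6 hairpins against Soat1 and 3 of the 6 labelled stk samples per line were not analysed here. The columns of sh1 were used as a group, since their names do not single out 1 labelled sample each. The labels give 1 batch date per experiment.

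Depth is unknown in FPKM. The lowest FPKM steps (values under 0.05, tolerance 0.01 on the log2 scale) gave relative depths of 0.892 to 1.12 for drug libraries and 0.886 to 1.31 for knockdown libraries, and FPKM summed to 314827 to 335066.6 and 320249.2 to 335812.8 per library. No 2 columns were identical.

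The test was limma's moderated statistic with a trend on the mean (version 3.58.1, R 4.3.3), two-sided, on log2(FPKM + 1), which understates changes of low genes. A gene entered a model when 3 or more of its libraries reached 1 FPKM, and a call is a Benjamini-Hochberg adjusted p under 0.05 over all genes tested. Lines and experiments were modelled apart, and contrasts between lines used all libraries of the table. With 3 libraries against 3, the smallest two-sided p of an exact permutation test is 0.1, and none was run. All 37 members could be named. Values per library are given for many called members and, for the hairpins in CT26, always for Lamp1, Ctsb, Ctsd, Ctsl, Mcoln1, Tfeb and Soat1. Elsewhere some members are given by a fold change or difference alone. Up to 3 called genes per direction come from each other list, with Npc1, Npc2, Lipa, Sqstm1 and Gpnmb always considered. The script was tested on simulated data. Alternatives were a pseudocount of 0.1, no filter, a minimum of 5 FPKM, quantile normalization, protein-coding genes alone, removal of the trend over transcript length, all libraries of a table in 1 model, the replicate number as a block, and leaving out each library.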

Additional observations from a re-analysis of the deposited data

How the results depend on the processing

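Called members were refitted in 3474 alternative fits: 3348 kept the call, 126 lost it and 0 changed direction. The count of called members with stk in Hepa1-6 was 0 and became 4 when 1 model held every drug library. Leaving out 1 library gave 20 to 22 called members with sh1, 18 to 23 with sh2, 22 to 25 with sh3, 20 to 23 with the mean of the 3 hairpins and 24 to 30 for sh3 set against the average of sh1 and sh2. It gave 30 to 31 between the lines under DMSO, 27 to 29 for scram against the labelled Hepa1-6 lucif libraries, 29 to 31 for those libraries against CT26 lucif, 26 to 27 for scram against CT26 lucif, and 0 for stk in each line, for the difference between the lines and for sh1 against sh2. Over all genes, stk in CT26 called 85 genes, and 14 with no filter, 133 with a minimum of 5 FPKM, 13 among protein-coding genes, 204 with all libraries and 4 with the replicate block. In Hepa1-6 it called 175, and 4, 473, 92, 928 and 4 under the same settings, and 76 with the trend over transcript length removed. With 1 library left out, CT26 called 2 (DMSO library 2), 9 (DMSO 3), 12 (stk 1), 21 (DMSO 1 or stk 2) or 92 genes (stk 3), and Hepa1-6 called 8 (DMSO 2 or stk 2), 17 (DMSO 3), 21 (DMSO 1), 22 (stk 3) or 59 (stk 1). The difference between the lines called 39 genes, and 7 (CT26 stk 1) to 28 (Hepa1-6 stk 2) in such fits, and sh1 against sh2 called 2, and 32 without the third column of sh1.

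The deviations of same-numbered libraries had correlations of -0.085 to 0.105, not over 0.1 in every pair, so the numbers were not taken as pairs. With the replicate block, 22 members were called with sh2, 24 with sh3, 31 between the lines under DMSO, 29 for scram against the labelled lucif libraries, 31 for those against CT26 lucif, 26 for scram against CT26 lucif and 0 with stk in each line and in their difference. Comparisons with sh1 were not blocked, since its columns carry no number. FPKM hold no read totals, so depth sets no stated limit on low members such as Sgsh and Tfeb.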
